A study of Mus musculus with 3 samples.

Results

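The Toll-like receptor genes Tlr1, Tlr2, Tlr3, Tlr4, Tlr7, Tlr8, Tlr9 and Tlr13 and the co-receptor genes Cd14 and Ly96 were read out in single myeloid cells from blood and tumors of mice with B16F10 melanoma. They are 10 of the 27998 genes listed in each count matrix, were chosen by symbol without use of their measured values, and each had exactly 1 row. The libraries came from C57BL/6J mice carrying subcutaneous B16F10 tumors, a transplantable mouse melanoma line. The Treg-depleted tumor came from a mouse labelled FoxP3 DTR, in which regulatory T cells can be ablated through the diphtheria toxin receptor, and was labelled as depleted of these cells. The control tumor and the control blood were labelled WT and control, and the blood was taken from tumor-bearing animals. There was 1 library per group, so genotype, depletion, animal and library cannot be told apart, and no value here has a replicate. The labels give neither the dose of any agent nor the age or number of the animals, although the series text speaks of a single depleted mouse. Cells were sorted as CD45+ CD90- NK1.1- Ly6G- B220- SigF- and positive for CD11b, CD11c or both, and were run on the droplet-based Chromium 3' v2 assay, which counts the 3' ends of polyadenylated RNA with unique molecular identifiers (UMIs).

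Toll-like receptors are membrane proteins of innate immunity that bind conserved molecules of microbes or of damaged cells and signal through the adaptors Myd88 and Trif. TLR1, TLR2 and TLR4 act at the plasma membrane on lipopeptides and lipopolysaccharide, whereas TLR3, TLR7, TLR8, TLR9 and TLR13 read nucleic acids inside endosomes, where the chaperone Unc93b1 delivers them. CD14 passes lipopolysaccharide to the complex of TLR4 and MD-2, the product of Ly96. Monocytes and macrophages are known for the plasma membrane receptors and CD14, plasmacytoid dendritic cells (pDC) for TLR7 and TLR9, and type 1 conventional dendritic cells (cDC1) for TLR3.

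After removal of barcodes with under 1000 UMIs, under 400 genes or more than 10% mitochondrial UMIs, 4434 cells remained in the Treg-depleted tumor, 4443 in the control tumor and 5550 in the control blood. Their median depth was 3820, 6452 and 3550 UMIs per cell in the same order. Levels are given in CPM, the UMIs of a gene scaled to all UMIs summed over the cells of a class, and were not divided by gene length because each UMI counts 1 RNA end. Intervals are exact 95% Poisson intervals for levels and exact conditional intervals for ratios, and cover counting error only. Each cell was placed in a class by a minimum number of marker genes that hold none of the 10 genes, with thresholds set after the data had been seen. The monocyte-to-macrophage cells, which comprise classical monocyte-like, nonclassical monocyte-like, macrophage-like and further cells with lineage markers such as Csf1r and Lyz2, numbered 3863, 3617 and 4556. There were 28, 102 and 19 cDC1-like cells, with Xcr1 and Clec9a among their 10 leading genes, 70, 178 and 189 cDC2-like cells, with Cd209a and Klrd1, and 6, 73 and 27 pDC-like cells, with Siglech and Ccr9. In the Treg-depleted tumor the macrophage-like cells were led by Dct, a melanocyte gene, followed by C1qa and C1qc, and the summed melanoma markers reached 54.1, 15.4 and 0.0608 CPM in the monocyte-to-macrophage cells of the Treg-depleted tumor, control tumor and control blood. All 5 melanoma markers were found in both tumors and 1 of 5 in the blood, at 0 for Mlana, Tyrp1, Dct and Tyr. Cd3e was at 0 in every library. The sort excluded cells positive for Ly6G, NK1.1 or B220. The neutrophil-like, NK-like and pDC-like cells are those that passed it, and how well they represent their types was not tested. The libraries shared 36 cell barcodes between the tumors, 27 between the Treg-depleted tumor and the blood, and 35 between the control tumor and the blood, against 26.7, 33.4 and 33.4 if barcodes were independent. Leaving out those barcodes moved no log2 ratio of the 10 genes between libraries beyond its counting interval, and leaving out cells with a melanoma marker UMI moved 1, that of Cd14 between the tumors.

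The classes were not held by the same clusters in each library. The largest share of classical monocyte-like cells lay in a cluster led by Retnla, Rnase2a and Gbp2b in the Treg-depleted tumor (29.3%), in a cluster led by Chil3, Hp and Cd177 in the control tumor (46.4%) and in a cluster led by Prss34, Chil3 and Lpl in the blood (23.0%). The largest share of macrophage-like cells lay in the same Retnla cluster in the Treg-depleted tumor (38.2%) and in a cluster led by C1qb, C1qa and Cd72 in the control tumor (35.5%), and further clusters held the rest. Ratios within a class therefore compare differently composed sets of cells.

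Sequence upstream of a pair of genes that differed in opposite ways between tumor and blood is shown first, as far as it lay outside annotated exons. Both stretches are from RefSeq promoters on GRCm38.p6 and are written 5' to 3' along the strand of the gene. The Tlr2 stretch, chr3:83841768-83841858 on the minus strand, has in capitals a match on both strands to the NF-kB motif, searched as GGGA and CC with any 4 bases between them, which begins 172 bases before the RefSeq start. The Tlr13 stretch, chrX:106143025-106143203 on the plus strand, has in capitals a match to the PU.1 motif GAGGAAG, 83 bases before the start.
Tlr2: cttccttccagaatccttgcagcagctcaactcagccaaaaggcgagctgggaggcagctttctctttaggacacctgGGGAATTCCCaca
Tlr13: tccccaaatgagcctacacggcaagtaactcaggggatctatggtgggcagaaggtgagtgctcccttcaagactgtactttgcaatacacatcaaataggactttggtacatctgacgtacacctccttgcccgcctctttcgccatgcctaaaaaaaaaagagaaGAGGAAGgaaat
The NF-kB motif was present in 5.56% of 32851 RefSeq promoters over the stretch used for Tlr2, searched on both strands, and the PU.1 motif in 7.24% over the stretch used for Tlr13. In the Tlr13 stretch the letters of the NF-kB motif did not occur (12.1% of promoters hold them there), nor did those of the PU.1 motif in the Tlr2 stretch (3.63%). The interferon-stimulated response element, searched on both strands as GAAA and GAAA with any 2 bases between them, was in neither stretch and in 1.16% and 2.19% of promoters over the stretches of Tlr2 and Tlr13. Tlr1, which had 2 RefSeq promoters, was not searched. Of the other 3 genes with 1 RefSeq promoter at hand, Tlr8 held none of the 3 motifs in its 250 bases. Over that stretch 17.6% of promoters hold the NF-kB, 2.98% the interferon-stimulated and 10.6% the PU.1 motif. Like Tlr13, Tlr8 was lower in the control tumor than in the blood. Tlr3 held the NF-kB motif (5.91% of promoters over its stretch) on the strand opposite to the gene, 23 bases before its RefSeq start. That stretch lies within the GENCODE span of Tlr3. Tlr9 held the PU.1 motif (10.6%), 112 bases before its start. The pair printed was chosen after these values were seen, the matches describe letters and not binding, and nothing on the direction of a difference is read from them.

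Tlr2 and Cd14 were abundant in the monocyte-to-macrophage cells of both tumors and low in those of the blood, while Tlr7 and Tlr13 were highest in the blood. Tlr4 was highest in the Treg-depleted tumor. Ly96 and Tlr1 had close levels in the 3 libraries, and Tlr3, Tlr8 and Tlr9 were rare throughout. Outside the lineage, Tlr3 was highest in cDC1-like cells of each library. Tlr7 in pDC-like cells was above the monocyte-to-macrophage cells in the tumors and near them in the blood.

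**Figure D1:**
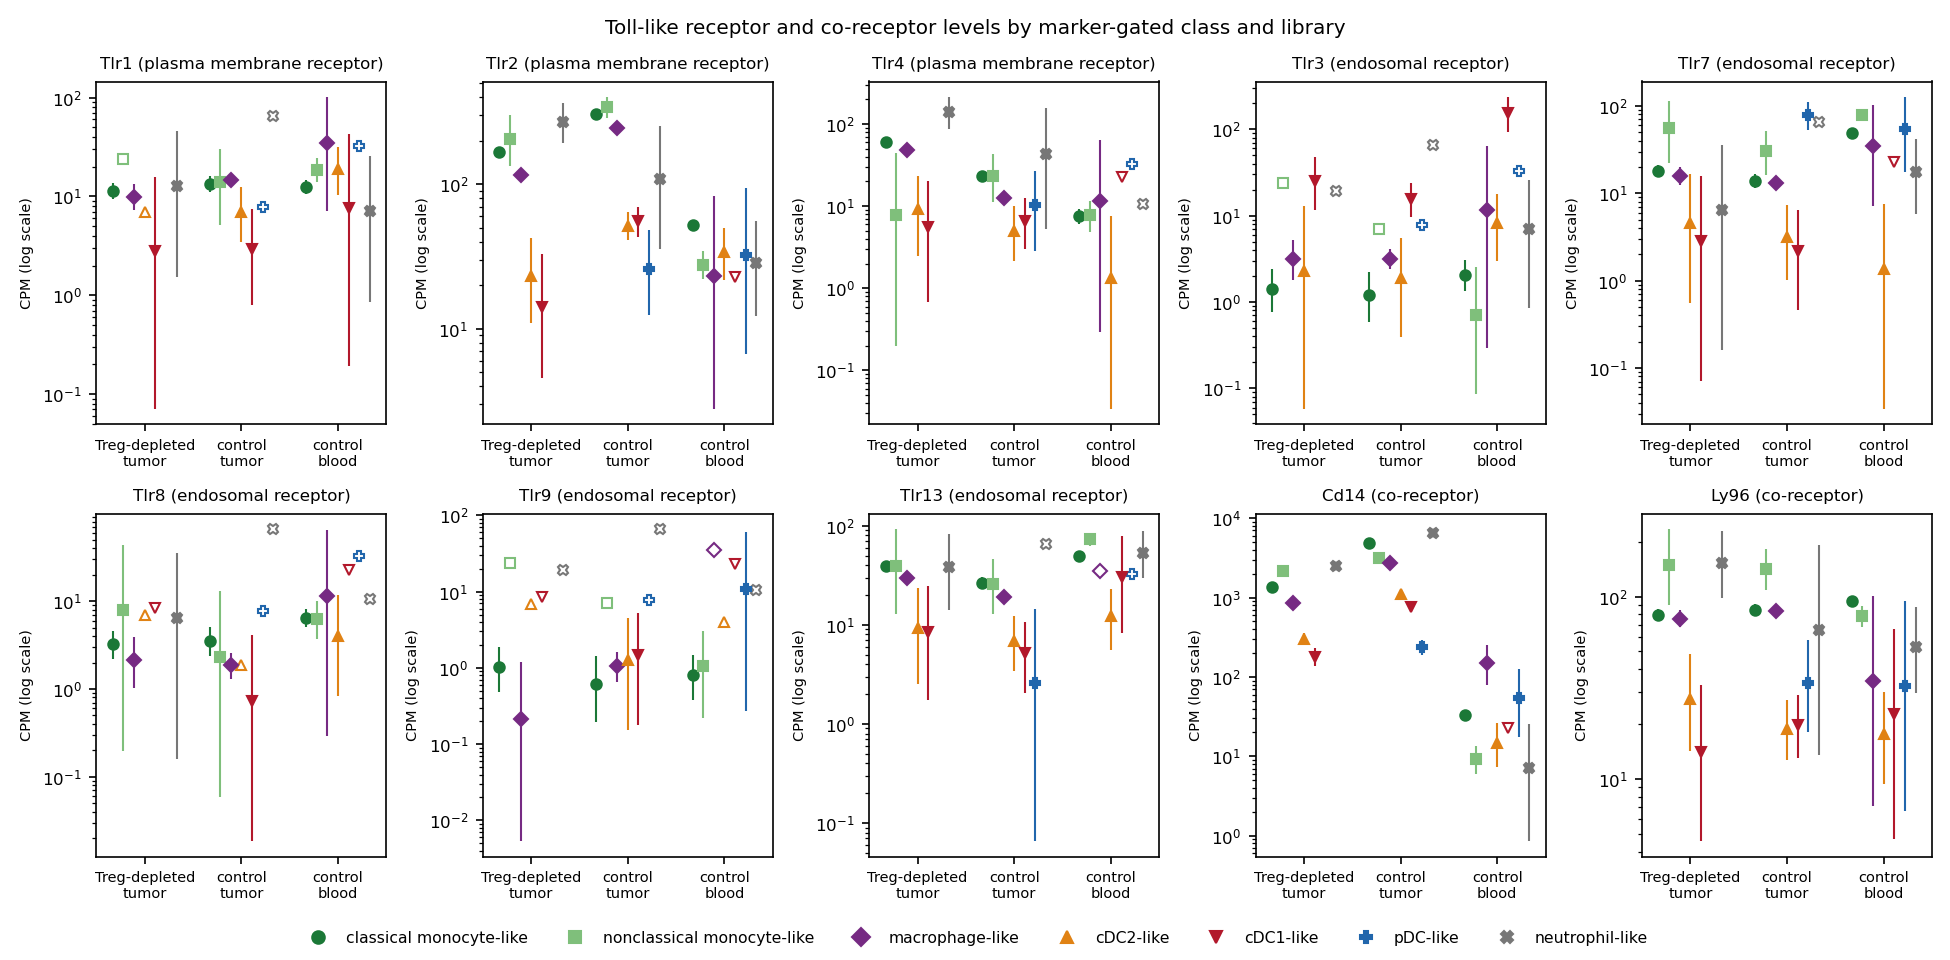
Level of each gene in CPM (log scale) by library and marker-gated class, with exact 95% Poisson intervals; open markers stand at the floor of 3 UMIs for classes without a UMI, and the 6 pDC-like cells of the Treg-depleted tumor are not drawn. Cd14 and Tlr2 of monocyte-like and macrophage-like cells sit higher in both tumors than in the blood, and Tlr3 peaks in cDC1-like cells. Tlr4 of classical monocyte-like cells is highest in the Treg-depleted tumor, and that of macrophage-like cells is higher there than in the control tumor.

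Among the plasma membrane receptors, Tlr2 (chr3:83836272-83841767, minus strand), which pairs with TLR1 or TLR6 on lipopeptides, stood at 153 CPM (147 to 159) in the monocyte-to-macrophage cells of the Treg-depleted tumor, 264 CPM (258 to 270) in the control tumor and 47.1 CPM (43.8 to 50.5) in the blood. None of the 3 intervals overlapped. Classical monocyte-like cells had 168, 307 and 52.1 CPM in the same order, and nonclassical monocyte-like cells 205, 340.4 and 27.8 CPM. In the blood the nonclassical class was thus below the classical class, with a log2 ratio of -0.91 (-1.26 to -0.57), whereas in the control tumor the log2 ratio of these classes was 0.15 (-0.10 to 0.39). Macrophage-like cells held 116 CPM in the Treg-depleted tumor and 246 CPM in the control tumor.

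Tlr4 (chr4:66827584-66930284, plus strand), the signalling receptor for lipopolysaccharide, reached 53.7 CPM (50.3 to 57.3) in the monocyte-to-macrophage cells of the Treg-depleted tumor, 15.8 CPM (14.4 to 17.3) in the control tumor and 7.60 CPM (6.33 to 9.06) in the blood. Its order across libraries differed from that of Tlr2, for which the control tumor came first. Classical monocyte-like cells had 59.9, 23.3 and 7.5 CPM. Macrophage-like cells had 48.6 CPM in the Treg-depleted tumor and 12.4 CPM in the control tumor. Not every class had this order. The cDC1-like cells had 5.62 and 6.62 CPM. Nonclassical monocyte-like cells of the control tumor had 23.3 CPM from 10 UMIs. The cluster with most of those of the Treg-depleted tumor (74.4%) had 4.51 CPM from 1 UMI. The highest level of Tlr4 in any class of at least 50 cells was 140.3 CPM (87.9 to 212, 22 UMIs) in the Treg-depleted tumor's 66 neutrophil-like cells, where the classical monocyte-like cells followed. The 22 neutrophil-like cells of the control tumor had 43.6 CPM of Tlr4, where Tlr1, Tlr2 and Tlr4 together held 7 UMIs. The 135 neutrophil-like cells of the blood held no Tlr4 UMI, for which 3 UMIs would be 10.6 CPM. Leading genes of the blood class included Ltf and Camp, and those of the Treg-depleted class Il1f9 and Cxcr2. The part of cell state in this contrast was not tested.

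Tlr1 (chr5:64924679-64933563, minus strand), a partner of TLR2, was at 10.5 CPM (9.04 to 12.2), 14.2 CPM (12.8 to 15.6) and 14.0 CPM (12.2 to 15.9) in the monocyte-to-macrophage cells of the Treg-depleted tumor, control tumor and blood. The control tumor and blood intervals overlapped widely. Among cDC2-like cells, which in tumors had 0 UMIs in the Treg-depleted and 11 in the control library, those of the blood had 18.9 CPM (10.3 to 31.7). Tlr1 has a close relative in Tlr6, and how reads shared by them were assigned is not given in the sources used here.

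Of the endosomal receptors, Tlr7 (chrX:167304929-167330558, minus strand), a sensor of single-stranded RNA, had 18.2 CPM (16.2 to 20.4) in monocyte-to-macrophage cells of the Treg-depleted tumor, 13.6 CPM (12.3 to 15) in the control tumor and 55.7 CPM (52.1 to 59.4) in the blood. Blood nonclassical monocyte-like cells stood at 79.0 CPM (69.1 to 90.1), above the 49.2 CPM of classical monocyte-like cells of the same library, with a log2 ratio of 0.68 (0.46 to 0.91). This order also held in the control tumor, where the classes had 30.3 and 13.9 CPM (log2 ratio 1.12, 0.17 to 1.95), and in the Treg-depleted tumor with 55.1 CPM from 7 UMIs against 18.1 CPM (log2 ratio 1.60, 0.27 to 2.68).

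Tlr13 (chrX:106143204-106160493, plus strand), which in mice binds bacterial ribosomal RNA, had 35.9 CPM (33.1 to 38.9), 21.7 CPM (20 to 23.5) and 52.9 CPM (49.4 to 56.5) in the Treg-depleted tumor, control tumor and blood. Unlike Tlr7, its level in nonclassical and classical monocyte-like cells differed beyond counting error only in the blood, where these had 72.7 and 49.4 CPM (log2 ratio 0.56, 0.32 to 0.79). The log2 ratio was 0.02 (-1.61 to 1.26) in the Treg-depleted tumor and -0.05 (-1.07 to 0.82) in the control tumor, and whether the libraries differ in it was not tested. Tlr8 (chrX:167242696-167264329, minus strand), the neighbour of Tlr7 and in humans a sensor of single-stranded RNA, was at 2.90 CPM from 49 UMIs, 2.40 CPM from 68 and 6.63 CPM from 109 in the monocyte-to-macrophage cells of the 3 libraries.

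Tlr3 (chr8:45395665-45411080, minus strand), a sensor of double-stranded RNA, was low in the monocyte-to-macrophage cells, at 1.78 CPM (30 UMIs) in the Treg-depleted tumor, 2.47 CPM (70 UMIs) in the control tumor and 2.01 CPM (33 UMIs) in the blood. The cDC1-like cells held 25.3 CPM from 9 UMIs in 28 cells of the Treg-depleted tumor, 15.4 CPM from 21 UMIs in 102 cells of the control tumor and 152 CPM from 20 UMIs in 19 cells of the blood. Their log2 ratios to the monocyte-to-macrophage cells of the same library were 3.83 (2.57 to 4.94), 2.65 (1.87 to 3.37) and 6.24 (5.37 to 7.09). Tlr3 was itself among the 10 leading genes of the blood cDC1-like cells, although the gate did not use it. The interval of the blood level (93.0 to 235 CPM) lay above those of the Treg-depleted tumor (11.6 to 48.0 CPM) and the control tumor (9.56 to 23.6 CPM). The cDC1-like cells of the tumors were deeper, at a median of 13346 and 12307 UMIs, against 6678 UMIs in the blood, and the Treg-depleted gate was also led by Ube2c, Birc5 and Top2a, genes of dividing cells. The part of depth or cell division in this difference was not tested. In the cDC2-like cells Tlr3 had 2.30, 1.89 and 8.10 CPM from 1, 3 and 6 UMIs.

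Tlr9 (chr9:106222598-106226883, plus strand), a sensor of unmethylated CpG DNA, had the fewest UMIs of the 10 genes in these cells of each library. It had 13 UMIs (0.769 CPM), 27 UMIs (0.951 CPM) and 13 UMIs (0.791 CPM) in the monocyte-to-macrophage cells. No Tlr9 UMI was found in the 6 pDC-like cells of the Treg-depleted tumor or the 73 of the control tumor, and 1 in the 27 of the blood. For the control tumor 3 UMIs would be 7.80 CPM, and the upper limit of the interval was 9.59 CPM, below the Tlr7 level of the same cells. Tlr9 under about that limit was not detectable at this depth.

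The same pDC-like cells carried Tlr7 at 158 CPM (58.0 to 344, 6 UMIs) in the Treg-depleted tumor, 78.0 CPM (52.6 to 111, 30 UMIs) in the control tumor and 54.1 CPM (17.6 to 126, 5 UMIs) in the blood. In the control tumor this was above the monocyte-to-macrophage cells by a log2 ratio of 2.52 (1.93 to 3.06). In the blood, whose monocyte-to-macrophage cells had 55.7 CPM, the log2 ratio was -0.04 (-1.67 to 1.19). No UMI of Tlr1, Tlr3 or Tlr8 was found in the pDC-like cells of any library. By contrast cDC2-like cells had little Tlr7, with 2 UMIs (4.60 CPM), 5 UMIs (3.15 CPM) and 1 UMI (1.35 CPM), and their log2 ratio to the blood monocyte-to-macrophage cells was -5.37 (-10.67 to -2.88).

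Among the co-receptors, Cd14 (chromosome 18) had the widest range. Its level in the monocyte-to-macrophage cells was 1233 CPM (1217 to 1250.3) in the Treg-depleted tumor, 3375 CPM (3353 to 3396) in the control tumor and 28.9 CPM (26.4 to 31.6) in the blood. Classical monocyte-like cells had 1354, 4859 and 33.3 CPM, nonclassical monocyte-like cells 2189, 3129 and 9.13 CPM, and macrophage-like cells 859 CPM in the Treg-depleted tumor and 2738 CPM in the control tumor. In the blood the classical class exceeded the nonclassical class, the order described for CD14 on human monocytes, with a log2 ratio of nonclassical over classical of -1.87 (-2.50 to -1.30). That log2 ratio was -0.63 (-0.71 to -0.56) in the control tumor and 0.69 (0.52 to 0.86) in the Treg-depleted tumor, where the nonclassical class held 39 cells.

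Ly96 (chr1:16688051-16709611, plus strand), which encodes the lipopolysaccharide-binding partner of TLR4, had 77.2 CPM (73.0 to 81.5), 84.0 CPM (80.7 to 87.4) and 91.6 CPM (87.1 to 96.4) in the monocyte-to-macrophage cells of the Treg-depleted tumor, control tumor and blood. The cDC2-like cells were lower in every library, at 27.6, 18.9 and 17.6 CPM. Their log2 ratios to the monocyte-to-macrophage cells were -1.48 (-2.44 to -0.67), -2.15 (-2.72 to -1.64) and -2.38 (-3.30 to -1.61).

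The order of Cd14 across the 19 combinations of library and class with at least 50 cells began with the classical monocyte-like cells of the control tumor and ended with blood cells, all 7 blood classes being below all 12 tumor classes. In the blood only the classical monocyte-like cells were separated from the next class, the intervals of the ratio between all lower neighbours holding 1. For Tlr7 the order began with blood nonclassical monocyte-like cells (79.0 CPM), control tumor pDC-like cells (78.0 CPM) and the further lineage cells of the blood (72.2 CPM), which did not differ beyond counting error from neighbour to neighbour. The next, blood classical monocyte-like cells, did. For Tlr13 no neighbours in the order were separated. For Tlr4 the first 2 steps were, from neutrophil-like to classical monocyte-like to macrophage-like cells, all in the Treg-depleted tumor.

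To compare detection at equal depth, every cell was thinned to 1000 UMIs. A Cd14 UMI was then present in 52.4% of the monocyte-to-macrophage cells of the Treg-depleted tumor, 80.3% of those of the control tumor and 2.74% of those of the blood, against 78.7%, 94.6% and 8.98% without thinning. Of the NK-like cells, which should lack Cd14, 1 of 16 (6.25%) had it in the control tumor after thinning and 0 of 165 in the blood, which allows up to 1.82% of cells with a UMI. Without thinning, at median depths of 2035 and 1452 UMIs, 2 NK-like cells had it in each of these libraries (12.5% and 1.21%). The median depths of the monocyte-to-macrophage cells were 3939, 6067 and 3589 UMIs. Tlr2 was detected in 14.5%, 21.7% and 4.15%, Tlr4 in 4.71%, 1.91% and 0.637%, Tlr7 in 2.36%, 1.41% and 6.04%, and Tlr13 in 3.81%, 2.38% and 5.53% of the thinned monocyte-to-macrophage cells, and each kept the order of its CPM across libraries. The thinned blood NK-like cells had a UMI in 0.606% for Tlr2, Tlr7 and Tlr13 and in 0 of 165 for Tlr4, which allows up to 1.82%, so the blood share of Tlr4 was not separable from background at this depth. Without thinning, Tlr13 was in 13.7% and 15% of the cells of the Treg-depleted and control tumor and Tlr7 in 7.09% and 9.43%, the opposite order to their CPM, with the deeper control tumor ahead. At least 1 of the 8 receptors was detected in 24.6%, 27.7% and 17.5% of thinned monocyte-to-macrophage cells and at least 2 in 2.38%, 1.71% and 1.08%.

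Near-empty barcodes also carried most of these genes. Barcodes with under 100 UMIs that were cells in no library had Cd14 at 1247 CPM in the Treg-depleted tumor, 2999.99 CPM in the control tumor and 37.8 CPM in the blood, and Tlr2 at 136, 222 and 50.8 CPM, near the levels of the monocyte-to-macrophage cells. Ly96 was higher in them than in those cells, at 127, 113 and 108 CPM. Tlr7, at 20.1, 15.2 and 61.3 CPM, and Tlr13, at 38.5, 22.7 and 67.5 CPM, were also at or above the levels of those cells. Tlr4 was at 48.1, 17.9 and 10.5 CPM. Tlr8 was at 1.02, 1.69 and 1.24 CPM from 3, 5 and 2 UMIs, and its blood interval (0.150 to 4.48) lay below the level of the blood monocyte-to-macrophage cells. The tumor dendritic classes, pDC included, carried Cd14 at 180 to 397 CPM in the Treg-depleted tumor (cDC1-like 180, pDC-like 289.7, cDC2-like 301 and the 44 cells with markers of Ccr7-positive dendritic cells 397) and at 237 to 1321 CPM in the control tumor (pDC-like 237, cDC1-like 752, cDC2-like 1113 and the 46 cells with Ccr7-positive dendritic markers 1321). With 10% of the UMIs of each class subtracted in the proportions of those near-empty barcodes, Cd14 became 0 in the control tumor pDC-like and NK-like cells but 502 CPM in its cDC1-like and 903 CPM in its cDC2-like cells. In the Treg-depleted tumor the corresponding values were 61.3 CPM for cDC1-like and 196 CPM for cDC2-like cells. The 10% is a set value and not a measured share, and the NK-like cells of the control tumor held 54.3 CPM of Cd14 before subtraction. The part of free RNA in the Cd14 level of the pDC-like cells was not tested. In the Treg-depleted tumor all 11 Cd14 UMIs of the pDC-like cells were in 1 of the 6 cells. Tlr7 in control tumor pDC-like cells was 84.6 CPM after the same subtraction. In the pDC-like cells of the blood it was 52.8 CPM, where the near-empty barcodes had 61.3 CPM.

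**Figure D2:**
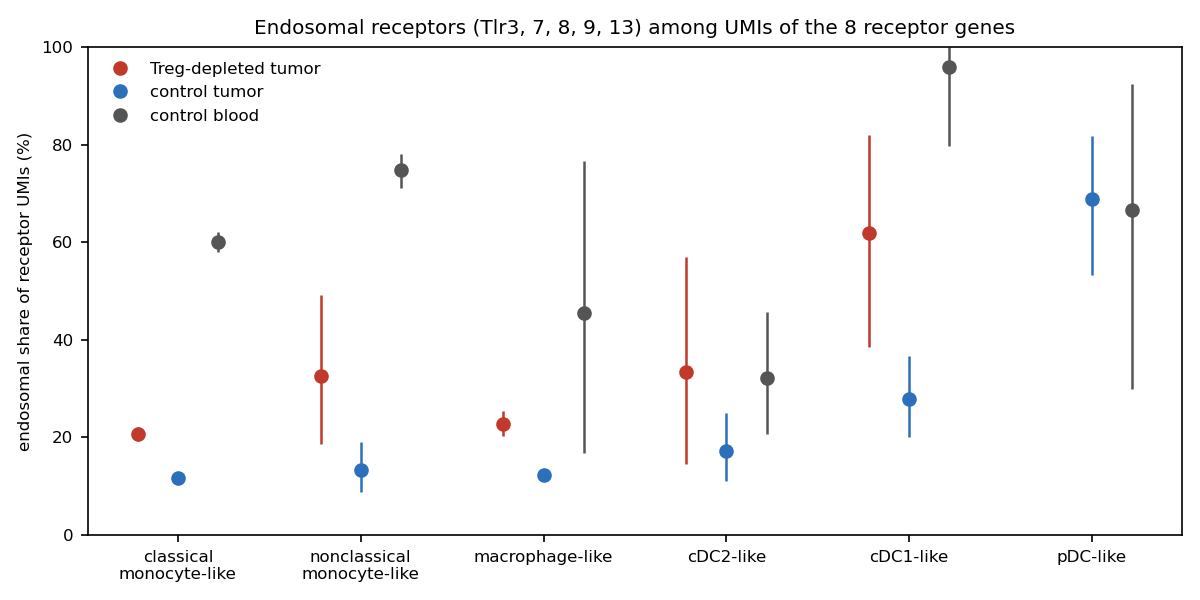
UMIs of Tlr3, Tlr7, Tlr8, Tlr9 and Tlr13 as a percentage of the UMIs of the 8 receptor genes (y axis), by class and library, with exact 95% binomial intervals. Classical and nonclassical monocyte-like cells of the blood sit at 60.0% and 74.7%, above both tumors, and the control tumor is lowest among the monocyte-like and macrophage-like classes.

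The balance between receptor locations followed from these levels. Endosomal receptors made up 21.5% (20.3 to 22.7) of the receptor UMIs of the monocyte-to-macrophage cells of the Treg-depleted tumor, 12.3% (11.6 to 12.9) in the control tumor and 63.2% (61.5 to 64.9) in the blood. Classical monocyte-like cells had 20.7%, 11.8% and 60.0%, and nonclassical monocyte-like cells 32.5%, 13.4% and 74.7%. The summed level of the endosomal receptors was 59.6, 41.1 and 118 CPM in the monocyte-to-macrophage cells and that of the plasma membrane receptors 217, 294 and 68.7 CPM. The cDC1-like cells had higher endosomal shares than the monocyte-to-macrophage cells of the same library, with 61.9% (38.4 to 81.9) in the Treg-depleted and 27.9% (20.1 to 36.7) in the control library, and 96.0% of 25 receptor UMIs in the blood. In the control tumor the pDC-like cells had 68.9% (53.4 to 81.8). The shares were not recomputed after subtraction of near-empty RNA. Under it Tlr2 in these pDC-like cells went from 26.0 to 4.14 CPM and Tlr7 from 78.0 to 84.6 CPM, which would raise their share. In the blood the cDC2-like cells were lower than the monocyte-to-macrophage cells, at 32.2% (20.6 to 45.6).

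The control tumor was set against the control blood to ask how receptor genes differ between blood monocytes and tumor myeloid cells. In the monocyte-to-macrophage cells Cd14 was 117-fold higher (log2 ratio 6.87, 6.74 to 7.0), Tlr2 5.61-fold higher (log2 2.49, 2.38 to 2.60) and Tlr4 2.08-fold higher (log2 1.05, 0.76 to 1.35). Lower were Tlr7 by 4.09-fold (log2 -2.03, -2.21 to -1.86), Tlr8 by 2.77-fold (log2 -1.47, -1.93 to -1.02) and Tlr13 by 2.44-fold (log2 -1.29, -1.44 to -1.14). Ly96 differed little (log2 -0.13, -0.22 to -0.03), and the intervals of Tlr1 (0.02), Tlr3 (0.30) and Tlr9 (0.27) held 0. The genes at least 2-fold higher are plasma membrane receptors or a co-receptor, and those at least 2-fold lower are endosomal receptors. The other genes of these locations, Tlr1, Ly96, Tlr3 and Tlr9, stayed within 2-fold, and a link to location was not tested.

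All 10 genes had at least 20 UMIs in either library, of which 3 were 2-fold or more higher and 3 were lower by as much. Among all 11101 genes with that many UMIs, 15.3% were higher and 22.7% lower by 2-fold or more. The median log2 ratio of all genes was -0.29, so the ratio relative to the median gene was 7.16 for Cd14, 2.78 for Tlr2, 1.35 for Tlr4, -1.74 for Tlr7, -1.17 for Tlr8 and -0.99 for Tlr13, the last just short of 2-fold. On this scale Ly96 turned positive, at 0.17. Neutrophil markers summed to 71.5 CPM in the monocyte-to-macrophage cells of the control tumor and 1749 CPM in those of the blood, all 12 being found in the blood and 11 in the tumor, with Camp at 0. Their part in these ratios was not tested.

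**Figure D3:**
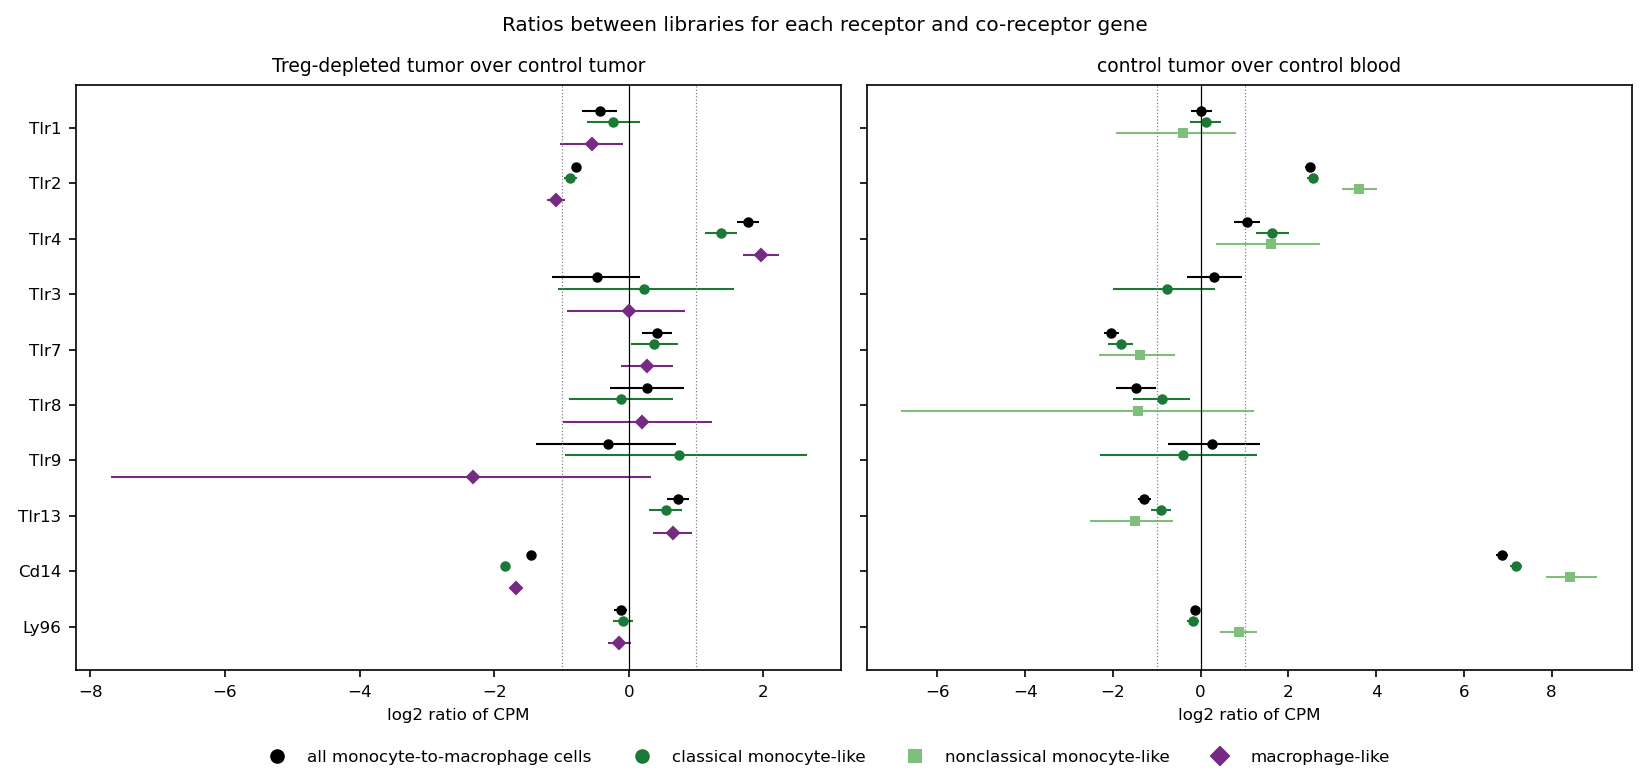
Log2 ratios of CPM for each gene (rows) with exact 95% intervals, Treg-depleted tumor over control tumor on the left and control tumor over control blood on the right; dotted lines mark a 2-fold difference and colours the cell class. Cd14 and Tlr2 lie right of 0 and Tlr7 and Tlr13 left of 0 against the blood, and Tlr4 lies right and Cd14 left of 0 after Treg depletion.

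Classical monocyte-like cells alone gave 3 genes at least 2-fold higher (Cd14, 146-fold; Tlr2, 5.89-fold; Tlr4, 3.10-fold) and 1 lower (Tlr7, 3.53-fold) of 9 with enough UMIs, where 11.7% and 27.2% of 10073 genes were. Tlr13 (log2 -0.90, -1.13 to -0.67) and Tlr8 (log2 -0.88, -1.54 to -0.25) were lower by less than 2-fold. Nonclassical monocyte-like cells, 97 in the tumor and 1021 in the blood, gave Cd14 343-fold, Tlr2 12.3-fold and Tlr4 3.02-fold higher and Tlr7 2.61-fold and Tlr13 2.84-fold lower, 7 genes being tested, where 8.6% and 27.7% of 7577 genes were higher and lower. In the cDC2-like cells 3 genes had enough UMIs. Of these Cd14 was higher (1113 CPM in the tumor, 14.9 CPM in the blood), Tlr2 had a log2 ratio of 0.61 (-0.05 to 1.32) and Ly96 of 0.11 (-0.88 to 1.17), where 15.6% of 5682 genes were higher and 15.4% lower.

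The direction of Ly96 between control tumor and blood differed between the monocyte classes in CPM, but not relative to the median gene. Its log2 ratio of control tumor over blood was 0.87 (0.43 to 1.28) in nonclassical monocyte-like cells, with 142 and 78.0 CPM, and -0.17 (-0.30 to -0.03) in classical monocyte-like cells, with 84.5 and 94.7 CPM. Relative to the median gene of each class the log2 ratios were 1.31 and 0.26, both above 0. The difference between the classes was not tested. Most of the nonclassical monocyte-like cells of the control tumor (74.2%) lay in the Chil3 cluster that also held the classical ones, while those of the blood lay in a cluster led by Fabp4 and Cd300e (61.3%).

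The Treg-depleted tumor was set against the control tumor to ask how receptor genes differ between the 2 libraries, in which depletion and genotype cannot be told apart. Foxp3 itself, a gene of regulatory T cells that the sort excludes, had 0 UMIs in the Treg-depleted and 1 in the control tumor and cannot check the depletion. In the monocyte-to-macrophage cells Tlr4 was 3.40-fold higher (log2 1.77, 1.60 to 1.93) and Cd14 2.74-fold lower (log2 -1.45, -1.47 to -1.43). Tlr2 was 1.72-fold lower (log2 -0.78, -0.85 to -0.72), Tlr13 1.66-fold higher (log2 0.73, 0.56 to 0.89), Tlr7 1.34-fold higher (log2 0.42, 0.20 to 0.64) and Tlr1 1.34-fold lower (log2 -0.43, -0.69 to -0.17). Ly96 had a log2 ratio of -0.12 (-0.22 to -0.02), and the intervals of Tlr3, Tlr8 and Tlr9 held 0.

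Thus 1 of the 10 genes was at least 2-fold higher and 1 lower, shares close to the 8.09% and 7.77% of all 10863 genes, and the median gene was at -0.04. The lipopolysaccharide receptor Tlr4 and its co-receptor Cd14 were the genes that passed, in opposite directions. Neutrophil markers summed to 319 CPM in the monocyte-to-macrophage cells of the Treg-depleted tumor and 71.5 CPM in those of the control tumor, with 12 and 11 of 12 found. Their part in the Tlr4 ratio was not tested, and in the Treg-depleted tumor neutrophil-like cells had the highest Tlr4 level. Within gated classes macrophage-like cells had 48.6 and 12.4 CPM (log2 1.97, 1.70 to 2.23) and classical monocyte-like cells 59.9 and 23.3 CPM (log2 1.36, 1.13 to 1.61) in the Treg-depleted and control tumor. Without cells that held a melanoma marker UMI, the log2 ratio of Tlr4 was 1.77 and that of Cd14 -1.51.

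Classical monocyte-like cells gave Tlr4 as the higher gene and Cd14 (3.59-fold) as the lower gene of 8, beside 10.6% and 5.32% of 9388 genes. Macrophage-like cells gave Tlr4 higher and Cd14 (3.19-fold), Tlr2 (2.11-fold) and Tlr9 lower of 10, beside 9.05% and 9.09% of 10295 genes, although Tlr9 rested on 1 UMI in the Treg-depleted and 20 UMIs in the control tumor and its interval held 0 (-7.69 to 0.32). Among cDC2-like cells 3 genes had enough UMIs and Cd14 (301 and 1113 CPM) and Tlr2 (23.0 and 51.6 CPM from 10 and 82 UMIs) were lower in the Treg-depleted tumor, beside 4.61% of 5423 genes higher and 10.3% lower. Both comparisons use the control tumor, so their ratios are not independent.

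**Figure D4:**
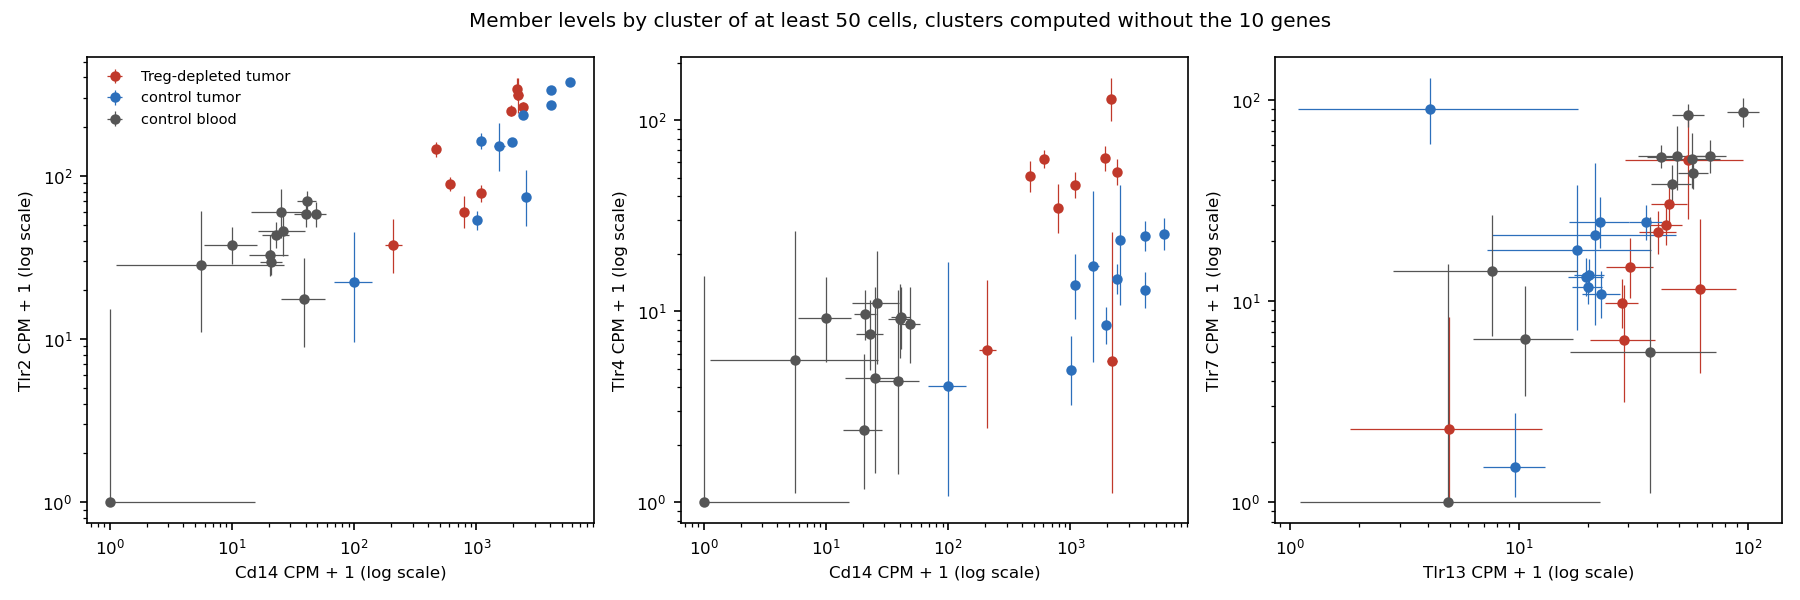
Tlr2 and Tlr4 against Cd14 and Tlr7 against Tlr13, each as CPM + 1 on log scales, for clusters of at least 50 cells computed without the 10 genes; colours mark the library and lines the 95% intervals. Blood clusters stay below 50 CPM of Cd14, tumor clusters high in Cd14 tend to be high in Tlr2, and 7 of 9 clusters of the Treg-depleted tumor lie at 33.9 CPM of Tlr4 or more, where no control tumor cluster exceeds 24.5 CPM.

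Clusters built without these genes resolved the levels further. Cd14 and Tlr2 were both highest in the control tumor cluster led by Chil3, Hp and Cd177, with 5859 and 375 CPM. In the Treg-depleted tumor they were high in the cluster led by Cxcl1, Il1a and Serpinb2 (2414 and 262 CPM) and low in the Retnla, Rnase2a and Gbp2b cluster (611 and 88.0 CPM). Tlr4 did not follow this contrast, at 52.7 CPM in the Cxcl1 cluster and 61.7 CPM in the Retnla cluster. The lowest Tlr4 among the Treg-depleted clusters, 4.51 CPM from 1 UMI, was in the cluster led by Spic, Treml4 and Ace, genes of nonclassical monocytes, and the highest, 128 CPM, in the cluster led by S100a9, S100a8 and G0s2. In the control tumor the cluster of pDC genes (Ly6d, Ccr9, Siglech) had the highest Tlr7, 89.0 CPM, and a Tlr13 level of 3.07 CPM from 1 UMI.

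Tlr3 appeared in a further place in the blood. The cluster led by the interferon-induced genes Cxcl10, Ifit1 and Ifit3, of whose 143 cells 95.8% passed the classical monocyte gate, held 10 UMIs (17.2 CPM). The other blood clusters in which over 95% of cells passed this gate, led by Prss34, by Chil3 with Vcan, and by F13a1, held 3, 1 and 2 UMIs (1.05, 0.473 and 0.949 CPM). A blood cluster led by Cd209a and Mgl2 held 28 UMIs (19.3 CPM). The cDC2-like cells were its largest class (39.5%), but all 189 cDC2-like cells of the blood held only 6 Tlr3 UMIs (8.10 CPM). The 19 cDC1-like cells of the blood, at 152 CPM, formed no cluster of their own. Which cells of the cluster held the UMIs was not tested.

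The genes closest in pattern to each receptor were sought among 8014 candidates over the 19 combinations of library and class, by Pearson's r of log2(CPM + 1). These points share 3 libraries and their depth, and r is a description. Cd14 was most like Sqstm1 (0.97), Slc15a3 (0.96) and Cxcl2 (0.96), and Tlr2 most like Mcfd2 (0.92), Por (0.92) and Ftl1 (0.92). Tlr13 was most like Lst1 (0.94), Sat1 (0.92) and Pygl (0.92), Tlr4 like Slc31a1 (0.91), Plgrkt (0.90) and B2m (0.90), and Ly96 like Pla2g7 (0.88), Cdc42ep2 (0.86) and Sh3bp2 (0.84). Tlr1 was nearest to Igsf6 (0.87), Lrrc25 (0.84) and Clec4a1 (0.82), Tlr8 to Tdrd7 (0.85), Ifih1 (0.84) and Apoc1 (0.80), Tlr7 to Adssl1 (0.84), Tgfbr1 (0.83) and Ldlrad3 (0.81), and Tlr3 to Ccdc163 (0.72), 2310040G24Rik (0.71) and Gpr34 (0.69). Tlr9 reached 20 UMIs in only 1 combination and was not compared. Tlr3 reached 20 UMIs in 3 and Tlr8 in 4 of the 19 combinations. The nearest genes of Tlr3 and Tlr8 therefore rest on few UMIs in most combinations. The cDC1-like cells of the Treg-depleted tumor (25.3 CPM of Tlr3) and of the blood (152 CPM) were too few to form a combination. Among all pairs of the 10 genes, Tlr9 included, the highest r was that of Tlr2 and Cd14 (0.86). The lowest was that of Tlr3 and Tlr7 (-0.42), which has the same limit of few Tlr3 UMIs.

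The wider pathway was followed with 72 genes in 7 lists, from further Toll-like receptors through chaperones, proteases, adaptors and kinases to transcription factors and inhibitors. In the monocyte-to-macrophage cells of control tumor over blood, 24 of the 70 genes with enough UMIs were at least 2-fold higher and 10 lower, where 15.3% and 22.7% of all 11101 genes were. Their median log2 ratio was 0.31, against -0.29 for all genes. The inhibitors had 8 of 12 higher and 1 lower (median 1.55), among them Tnip3 (248 CPM in the tumor and 8.40 CPM in the blood) and the deubiquitinase gene Tnfaip3 (119 and 6.69 CPM), with Sigirr lower (1.83 and 6.33 CPM). Of the endosomal proteases and nucleases, which trim nucleic acid sensing receptors or their ligands, 6 of 11 were higher and 0 lower (median 1.76), with Ctsk at 205 UMIs in the tumor and 2 in the blood. Of the kinases and ubiquitin ligases 2 of 17 were higher and 4 lower, including Irak4 (21.5 and 58.8 CPM), the first kinase below Myd88, and Tab2 (39.5 and 93.3 CPM). The adaptors had 1 of 5 higher, the transcription factors 3 of 10 higher and 1 lower, the chaperones and carriers 2 of 11 higher and 3 lower, and the further receptors 2 of 4 higher and 1 lower, each list beside the same 15.3% and 22.7% over all genes.

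In Treg-depleted over control tumor 5 of 68 pathway genes were at least 2-fold higher and 8 lower, beside 8.09% and 7.77% of all genes, with a median log2 ratio of -0.15 against -0.04 for all genes. Unc93b1, which carries the endosomal receptors to their compartment, had 169 CPM in the Treg-depleted and 407 CPM in the control tumor (log2 -1.27, -1.33 to -1.21), while Tlr7 and Tlr13 were higher. Pld4, an endosomal nuclease, had 122 and 321 CPM, and Tlr12 0.710 and 3.70 CPM from 12 and 105 UMIs. Higher were Cd36 (431 and 157 CPM), a scavenger receptor that can present lipids to TLR2, Tlr6 (22.6 and 9.80 CPM), a partner of TLR2, and Socs1 (log2 ratio 1.10), an inhibitor of cytokine and receptor signalling. The transcription factors had 0 of 10 past 2-fold in either direction, and kinases and ubiquitin ligases 1 of 17 higher and 0 lower.

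The near-empty barcodes also differed by what the same barcode was in another library. Control blood barcodes with under 100 UMIs had Cd14 at 3310.0 CPM (3041 to 3596) where the barcode was a cell in the control tumor, against 37.8 CPM (28.9 to 48.6) where it was a cell in no library. Where it was a cell in the Treg-depleted tumor, Cd14 was at 474 CPM (154 to 1107) from 5 UMIs. Such barcodes entered no comparison between classes.

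**Figure D5:**
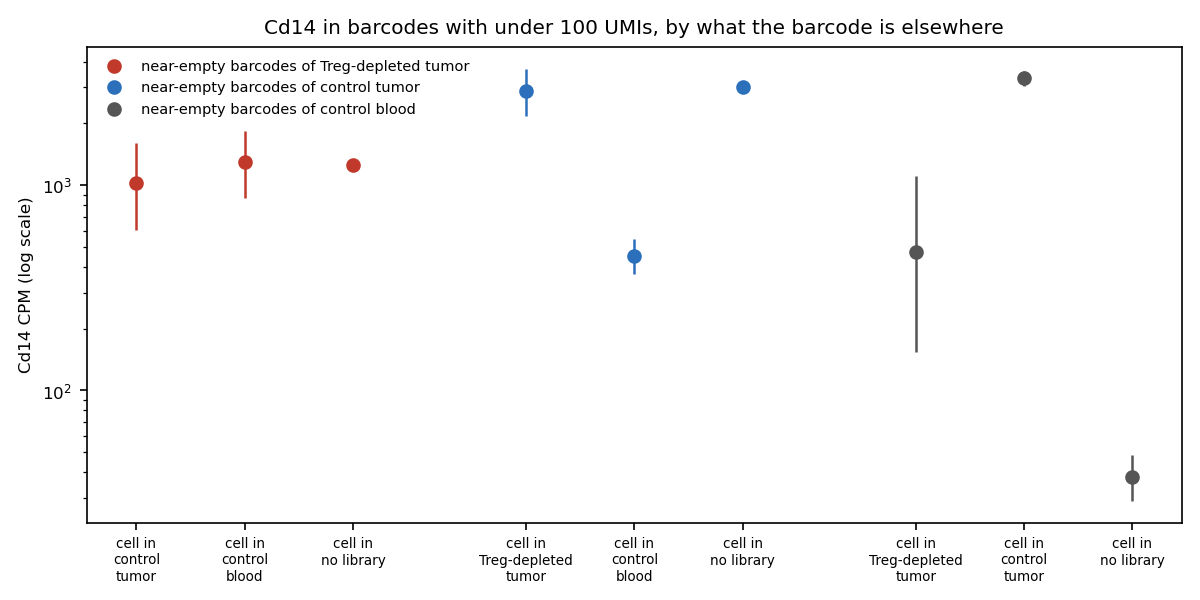
Cd14 CPM (log scale) with 95% Poisson intervals in barcodes with under 100 UMIs, grouped on the x axis by whether the same barcode is a cell in another library and coloured by the library read. Control blood barcodes that are cells in the control tumor stand at 3310.0 CPM, against 37.8 CPM in barcodes that are cells in no library.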

How the data were processed

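Single-cell libraries of sorted myeloid cells from the Treg-depleted tumor, the control tumor and the control blood were analysed, 1 of each, grouped by the labels. The authors deposited raw UMI counts per gene and barcode, of 737280 barcodes per library; Cell Ranger 1.2 and mm10 are named per the submitters' processing notes. The counts are whole numbers and not normalized; how intronic or multi-mapped reads were counted is not given in the sources used here.

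Cells were kept at 1000 UMIs, 400 genes and 10% mitochondrial UMIs. The cells held 19392626, 38680457 and 19823533 UMIs in the Treg-depleted tumor, control tumor and control blood, 83.3%, 91.0% and 86.4% of those in the files. Gates required 2 to 4 of the markers of a class; cells meeting rival gates (86, 334 and 279) entered no class, which removes part of the doublets, and a score from simulated doublets was an alternative. The members, marker and pathway lists were chosen with earlier results of these data known, and gate thresholds after the data were seen. Named genes were all 10 members, up to 3 pathway genes at each end of the ratio with at least 100 UMIs, and the 3 nearest genes by correlation. Genes were tested for a 2-fold difference if either group held 20 UMIs, and classes if both held 50 cells; with 1 library per group no p-value was computed. Alternatives changed the cell filters, gates, clustering (30 components, 20 neighbours, Leiden resolution 2), weighting, scaling, count filter, free RNA and thinning. Gene positions are from GENCODE on GRCm38, the assembly of mm10; sequences from RefSeq on GRCm38.p6. The ratio and interval code was tested on simulated data. Python 3.11.15, scanpy 1.11.5, numpy 2.4.6, pandas 2.3.3 and scipy 1.17.1 were used.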

Additional observations from a re-analysis of the deposited data

Results flagged for a closer look

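Control blood barcodes with under 100 UMIs that hold 1000 UMIs or more in the control tumor (3606 barcodes) had Cd14 at 3310.0 CPM (3041 to 3596, 560 UMIs), a signal in data that entered no comparison. Blood barcodes that were cells in no library had 37.8 CPM (28.9 to 48.6, 61 UMIs), and the monocyte-to-macrophage cells of the control tumor 3375 CPM. The chemokine gene Cxcl2 showed the same contrast, at 3487 CPM against 39.7 CPM. In the other direction, near-empty control tumor barcodes that were cells in the blood had Cd14 at 453 CPM against 2999.99 CPM, and F13a1, a gene of blood monocytes, at 227 CPM against 71.7 CPM. Near-empty barcodes of the Treg-depleted tumor that were cells in the blood had Cd14 at 1290.2 CPM, against 1247 CPM in those that were cells nowhere. Near-empty blood barcodes that were cells in the Treg-depleted tumor had Cd14 and Cxcl2 each at 474 CPM (154 to 1107) from 5 UMIs, against 37.8 and 39.7 CPM. Cells whose barcodes were cells in 2 libraries were left out as an alternative, and the log2 ratio of Cd14 in control tumor over control blood was then 6.90 in place of 6.87.

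The log2 ratio of Ly96 in control tumor over control blood went opposite ways in the monocyte classes, at 0.87 in nonclassical monocyte-like and -0.17 in classical monocyte-like cells. Relative to the median gene of each class both were above 0, at 1.31 and 0.26, so the opposite direction depends on the scaling. The difference was not tested, since each group is 1 library.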

How the results depend on the processing

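All values rest on 1 library per group, so their intervals cover counting error only and no spread between animals is known. No paired analysis was possible because each group has 1 library and no replicate number, and for the same reason no replicate could be left out. Of the 12 alternatives for ratios, those with a minimum of 100 or 1 UMI change only which genes are counted, not the ratios. Under all 12 the log2 ratios of Cd14, Tlr2, Tlr4, Tlr7, Tlr8 and Tlr13 in the monocyte-to-macrophage cells kept their sign in both comparisons. Small ratios did not all do so. Tlr9 in Treg-depleted over control tumor was 0.38 by mean CPM per cell, Ly96 in control tumor over blood 0.17 when scaled by the median gene, and Tlr1 there -0.01 without cells with a melanoma marker UMI. Of the counts, 267 stayed within 1.5 times of the value given and 13 did not. Of single values, 273 stayed within their counting interval and 70 did not. The single values include ratios under a minimum of 100 or 1 UMI, which cannot move. They also include detection shares with less or no thinning, which tend to rise with depth. Their tallies are therefore partly fixed in advance. Named Leiden clusters gave 3 genes lower in control tumor over blood in each of the classical monocyte-like and cDC2-like cells, and in Treg-depleted over control tumor 2 higher in macrophage-like cells and 3 higher and 1 lower in cDC2-like cells. Subtracting near-empty RNA gave 2 lower in classical monocyte-like cells of control tumor over blood. Mean CPM per cell gave 1 lower in macrophage-like and 1 in cDC2-like cells of Treg-depleted over control tumor. Scaling by the median gene gave 5 pathway genes lower in control tumor over blood, in place of 10, and 1 of the 10 genes lower in nonclassical monocyte-like cells. A minimum of 100 UMIs gave 1 lower in cDC2-like cells of Treg-depleted over control tumor, beside 6.96% of all genes with that many UMIs. A minimum of 1 UMI gave 3 higher and 3 lower in cDC2-like cells of control tumor over blood. For the other alternatives the share of all genes past 2-fold was not computed, so their counts are not set against all genes. The scaling shift is that of the median gene; the cause of the others was not tested. No cDC1-like cluster was found in the control tumor or the blood, so that alternative has no value for Tlr3 there. Leaving out barcodes shared by libraries and cells with a melanoma marker UMI were alternatives chosen after seeing the data.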
